A study of Mus musculus with 4 samples.

Results

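The genes described here encode the signalling line from insulin and insulin-like growth factor 1 (IGF1) to the FOXO transcription factors, as 10 named genes of mouse tumour-associated macrophages: Igf1, Igfbp4, Igfbp7, Insr, Igf1r, Irs1, Irs2, Pik3r1, Foxo1 and Foxo3. They were chosen by symbol from the 53379 gene identifiers of the count table, each matched to 1 Ensembl identifier, and all 10 had enough reads to be tested. RNA was sequenced from CD45, CD11b and F4/80-positive cells sorted from MC38 tumours of C57BL/6J mice 21 days after implantation, and MC38 is a mouse colon carcinoma line. There were 2 mice on a high-fat diet (HFD) and 2 on a control diet (CD), each giving 1 library, and all 4 carried the same tumour model. The labels give neither the composition and duration of the diets nor the sex and age of the mice. The mice are called HFD mouse 1 and 2 and CD mouse 1 and 2 below.

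Insulin and IGF1 bind related receptor tyrosine kinases, the insulin receptor and the IGF1 receptor, which phosphorylate the docking proteins IRS1 and IRS2. These recruit PI 3-kinase, whose lipid product activates the kinase AKT, and AKT in turn keeps FOXO factors out of the nucleus, where they would otherwise activate genes such as Irs2. IGF-binding proteins hold IGF1 outside the cell and set how much of it reaches the receptor, and macrophages are known as a source of IGF1 outside the liver.

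Libraries held 34148682 to 37159552 counts. Levels are given as CPM, reads set against the size of the library after TMM scaling. A gene was called higher or lower where edgeR's quasi-likelihood test of high-fat minus control diet gave a Benjamini-Hochberg adjusted p below 0.05 over all 18422 genes tested. The 12 macrophage markers, among them Ptprc, Itgam and Adgre1 for the antigens of the sort, summed to 16230 and 17070 CPM in the HFD and 14270 and 16950 CPM in the CD libraries, and 0 of them were called by edgeR or by DESeq2 (2 at an unadjusted edgeR p below 0.05). Markers of other cells moved with the diet. The 15 fibroblast and pericyte markers summed to 2155 and 2154 CPM in the HFD and 1090 and 814 CPM in the CD libraries, none of them at 0 in any library. Of these markers 9 were called higher and 0 lower, where 2.61% of all genes tested were called higher and 7.91% lower. Lower in the HFD libraries were 7 of 8 tested epithelial markers (summed CPM 39.6 and 46.2 against 159 and 122), 6 of 8 neutrophil markers (191 and 169 against 382 and 190) and 2 of 6 dendritic cell markers (18.8 and 24.9 against 85.6 and 53.1). The largest part of the epithelial sum was Cdh1, which was not called (38.5 and 45.2 against 144 and 57 CPM). The 7 called epithelial markers were all higher in CD mouse 2 than in CD mouse 1. Csf3r and Mmp9, neither called, made up most of the neutrophil sum. The median log2 fold change was -6.63 over the tested epithelial and -4.05 over the tested neutrophil markers. Of the epithelial markers Cldn3 had 0 reads in both HFD libraries and Cldn4 in 1, and of the neutrophil markers Ly6g had 0 reads in both and Ngp in 1. Of the 11 immediate early genes, which answer within minutes to stimulation or handling, 3 were lower (summed CPM 7274 and 7801 against 11190 and 7691). DESeq2 called 6 of them lower and 1 higher. Fos went the other way, with 2822 and 2724 CPM in the HFD and 2053 and 1663 CPM in the CD libraries, and was not called (edgeR adjusted p = 0.0901). Of 6 tested mitochondrially encoded genes 2 were higher (23910 and 13990 against 6351 and 9284). Of 7 T and NK cell markers 1 was lower and of 3 tested B cell markers 1 was lower, and of 8 tested endothelial markers edgeR called 0 (3 at an unadjusted p below 0.05, 1 by DESeq2). The part of any of these in the results below was not tested. In RNA from a sorted population, fewer cells of a type and less RNA per cell cannot be told apart.

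Of the 10 genes, 2 were called higher in the HFD libraries, Igf1 and Igfbp7, and 1 was called lower, Irs2. The shares over all genes tested were 2.61% higher and 7.91% lower, or 10.5% in either direction. For 8 of the 10 genes both HFD values lay on one side of both CD values, 4 in each direction, against 63.8% of all genes tested. The median log2 fold change was 0.045 over the 10 genes and 0.005 over all genes tested, and the median of its absolute size was 0.491 against 0.387. The counts changed with the libraries used. Fewer of the 10 genes were called without either HFD mouse, more without CD mouse 2, and as many without CD mouse 1. Over all genes tested the calls also fell without either HFD mouse and rose without either CD mouse, so these changes are not particular to the 10. Igf1, Igfbp7 and Irs2 kept their sign in each of these fits. With so few genes and mice the counts describe this list and do not set it apart from other genes.

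**Figure D1:**
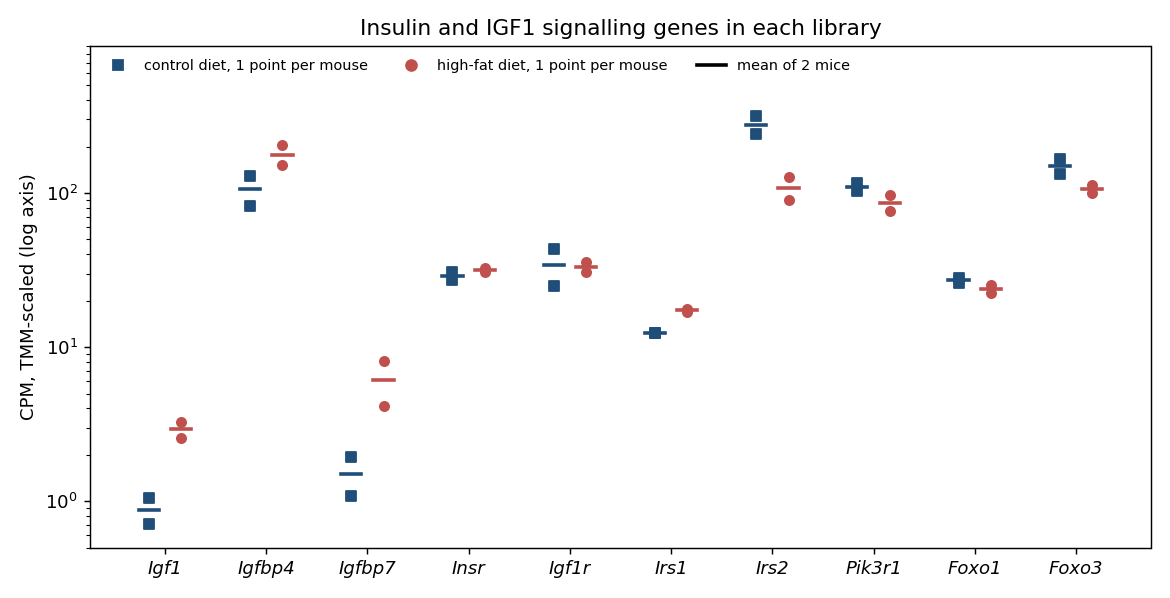
Level of each of the 10 genes in CPM (log axis) in the 2 CD (squares) and 2 HFD (circles) libraries, with the mean of each pair as a line. Igf1 and Igfbp7 lie higher in both HFD mice, Irs2 lies lower in both, and the points of Insr and Igf1r overlap between the diets.

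**Figure D2:**
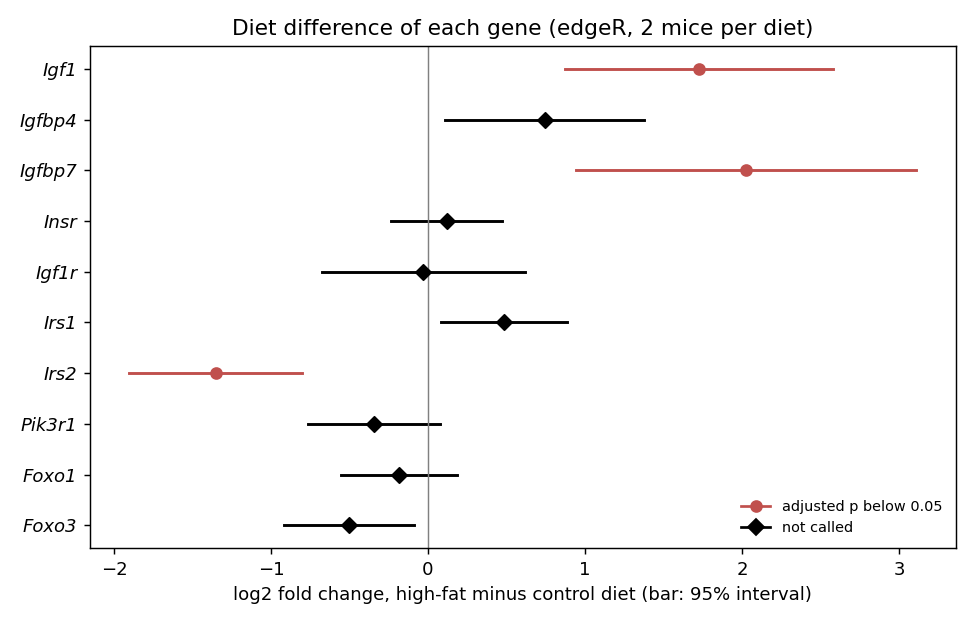
Log2 fold change, high-fat minus control diet, of each of the 10 genes, with its 95% interval from the edgeR fit of 2 mice per diet. Circles mark Igf1, Igfbp7 and Irs2, the genes with an adjusted p below 0.05, and diamonds the 7 genes that were not called.

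Of the docking proteins, Irs2 fell and Irs1 was not called. Irs2 and Irs1 couple the activated receptors to PI 3-kinase, and Irs2 is the one whose promoter is a textbook target of FOXO factors. The 250 bases before the RefSeq start of each gene (GRCm38.p6) are shown because both hold the same pair of motifs. Capitals mark the insulin response element CAAAACA, here read on the opposite strand as TGTTTTG, and the E-box CACGTG, a palindrome. The Irs1 window is chr1:82291440-82291689 and the Irs2 window chr8:11008930-11009179, both on the minus strand.
Irs1: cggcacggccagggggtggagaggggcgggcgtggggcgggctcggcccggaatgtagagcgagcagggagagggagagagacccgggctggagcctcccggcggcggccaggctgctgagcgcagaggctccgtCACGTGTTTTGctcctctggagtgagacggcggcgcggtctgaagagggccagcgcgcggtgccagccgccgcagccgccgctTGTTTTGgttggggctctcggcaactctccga
Irs2: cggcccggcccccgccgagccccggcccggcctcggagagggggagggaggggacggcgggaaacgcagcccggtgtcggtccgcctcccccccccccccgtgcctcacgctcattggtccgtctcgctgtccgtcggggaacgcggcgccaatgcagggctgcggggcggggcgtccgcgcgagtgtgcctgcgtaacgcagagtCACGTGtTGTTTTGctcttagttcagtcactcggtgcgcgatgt
In Irs2 the E-box spans bases 44 to 39 before the start and the insulin response element bases 37 to 31. In Irs1 the E-box spans bases 115 to 110 and runs into an element at bases 111 to 105, and a second element stands at bases 32 to 26. Of 32851 such windows of all genes, 5.56% hold the insulin response element on either strand and 6.02% the E-box. Of the 10 genes, 9 have a window in the RefSeq table, and Irs1 and Irs2 are the 2 that hold either motif. The motifs were chosen after these sequences were seen, so the shares are no test of Irs1 and Irs2. As a FOXO binding element only the letters GTAAACA were searched, and they are in 3.17% of all windows and in none of those 9 genes. That count does not cover the insulin response element or other sequences that FOXO factors may bind. A match of letters describes the window and does not show that a factor binds there.

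Irs2 (chromosome 8, 10984681 to 11008458, GRCm38, minus strand) had 90.6 and 126 CPM in the HFD libraries and 314 and 241 CPM in the CD libraries. Both HFD mice lay far below both CD mice. Irs2 fell 2.56-fold, a log2 fold change of -1.35 (SE 0.23, edgeR adjusted p = 0.0251), with a 95% interval from -1.90 to -0.80. Its adjusted p was 0.0966 without HFD mouse 1, where the log2 fold change was -1.11.

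Irs1 (chromosome 1, 82233101 to 82291416, minus strand), the docking protein with the same promoter motifs, had 16.9 and 17.8 CPM in the HFD and 12.4 CPM in each of the CD libraries. The pairs were tight and did not overlap, with the HFD pair on the upper side. The log2 fold change was 0.48 (SE 0.17, edgeR adjusted p = 0.111), so Irs1 was not called.

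The ratio of Irs2 to Irs1 within a library does not depend on how libraries are scaled. Per kilobase of merged exons, Irs2 RNA was 7.74 and 10.3 times that of Irs1 in the HFD libraries. In the CD libraries it was 36.5 and 28 times that of Irs1. Irs2 exceeded Irs1 in every library, by a smaller margin in the HFD mice. The ratio was formed after the values of both genes were seen and has no test.

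Among the secreted proteins, Igf1 and Igfbp7 rose, and Igfbp4 was not called in the main test. Igf1 (chromosome 10, 87858265 to 87937042, plus strand), the growth factor itself, was the scarcest of the 10. It had 97 and 125 reads, or 2.59 and 3.26 CPM, in the HFD libraries and 23 and 39 reads, or 0.709 and 1.05 CPM, in the CD libraries. The lowest HFD value was above the highest CD value. Igf1 rose 3.31-fold, a log2 fold change of 1.73 (SE 0.35, edgeR adjusted p = 0.0369, 95% interval 0.87 to 2.58). The call was lost without HFD mouse 1 (adjusted p = 0.133) and without HFD mouse 2 (adjusted p = 0.178), at log2 fold changes of 1.90 and 1.57.

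Igfbp7 (chromosome 5, 77349240 to 77408041, minus strand), a matrix-associated member of the IGF-binding protein superfamily, had 156 and 310 reads in the HFD libraries and 63 and 40 in the CD libraries. These correspond to 4.17 and 8.08 CPM against 1.94 and 1.08 CPM. The pairs did not overlap, although mouse 2 differed from mouse 1 by 0.95 (HFD) and -0.85 (CD) on the log2 scale. Igfbp7 rose 4.07-fold, a log2 fold change of 2.03 (SE 0.45, edgeR adjusted p = 0.0419, 95% interval 0.94 to 3.11). Without HFD mouse 2 the adjusted p was 0.173 at a log2 fold change of 1.49. Igfbp7 and Polr2b, an RNA polymerase subunit gene on the other strand, share 85 bases at their ends, and the strand setting of the counting is not given, so reads there cannot be assigned to either gene.

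Igfbp4 (chromosome 11, 99041244 to 99054392, plus strand), a binding protein that blocks IGF1 until it is cleaved, was far more abundant. It had 151 and 204 CPM in the HFD and 82.6 and 129 CPM in the CD libraries. The pairs did not overlap, although the lower HFD mouse was closer to the upper CD mouse than the mice of either diet were to each other. The log2 fold change was 0.74 (SE 0.26, edgeR adjusted p = 0.116). Igfbp4 was called higher in 4 of the 9 alternatives, by edgeR with the mouse number as a block (adjusted p = 0.0422), without a filter on low counts (0.0295) and without CD mouse 2 (0.0104), and by DESeq2 (0.038). Per kilobase, Igfbp4 RNA was 131 and 140 times that of Igf1 in the HFD libraries and 261 and 277 times that of Igf1 in the CD libraries.

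The other binding proteins and their proteases, 8 genes, were mostly near the limit of detection, and 0 of the 3 tested were called by edgeR (1 at an unadjusted p below 0.05, 1 by DESeq2). Igfbp3, the main carrier of IGF1 in blood, had 9.29 and 14.3 CPM against 5.73 and 2.15 CPM (log2 fold change 1.59, SE 0.48, adjusted p = 0.0837). Leaving out 1 CD mouse moved Igfbp3 past the threshold, to 2.46 without mouse 1 (adjusted p = 0.00713) and 1.04 without mouse 2 (adjusted p = 0.0438). Igfbp6 had 17.4 ± 2.18 against 13.2 ± 5.56 CPM (SD, n = 2 mice per diet, edgeR adjusted p = 0.412). Igfbp2 had 3 and 14 reads in the HFD libraries and 0 in both CD libraries, so most of its reads came from 1 mouse. Pappa, the protease that cleaves IGFBP4, had 17 reads on the high-fat diet and 1 on the control diet, a ratio of 15.6 (exact conditional 95% interval 2.45 to 653, counting error only). Igfals, which encodes a liver partner of IGF1 carriers, had 1 read against 27, a ratio of 29.4 towards the control diet (interval 4.84 to 1204). These intervals add up the reads of a diet's 2 mice and do not cover the spread between mice.

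Fibroblasts and pericytes are known to make IGF1 and several of these binding proteins, and 9 of their 15 markers were called higher in the same HFD libraries. A sort for CD45 selects against these cells, which lack it. The other way went Tagln, with 0.32 and 0.495 CPM in the HFD against 1.29 and 1.16 CPM in the CD libraries, and Fap, with 0.801 and 0.599 against 1.7 and 1.02 CPM, and neither was called (edgeR adjusted p = 0.0693 and 0.192). Without Col3a1, the most abundant of them, the other 14 markers summed to 465 and 615 CPM in the HFD and 200 and 140 CPM in the CD libraries. The median log2 fold change of the 15 markers was 1.48, between that of Igfbp4 and that of Igf1. In Igfbp7, Igfbp3 and the marker sum without Col3a1, mouse 2 was the higher of the HFD pair and the lower of the CD pair. With Col3a1 the sums of the HFD mice were nearly equal, at 2155 and 2154 CPM. Single markers did not all follow this order. Col3a1, Dcn and Cspg4 were lower in HFD mouse 2 than in HFD mouse 1. Col1a2 and Postn were higher in CD mouse 2 than in CD mouse 1. In the endothelial sum mouse 2 was again the higher of the HFD pair (45.5 and 63.8 CPM) and the lower of the CD pair (93.8 and 52.5 CPM). An order of 2 mice per diet cannot tell sources apart. Igf1 and Igfbp4 were higher in mouse 2 of both diets. The part of these cells in the values of Igf1, Igfbp7, Igfbp4 and Igfbp3 was not tested.

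**Figure D3:**
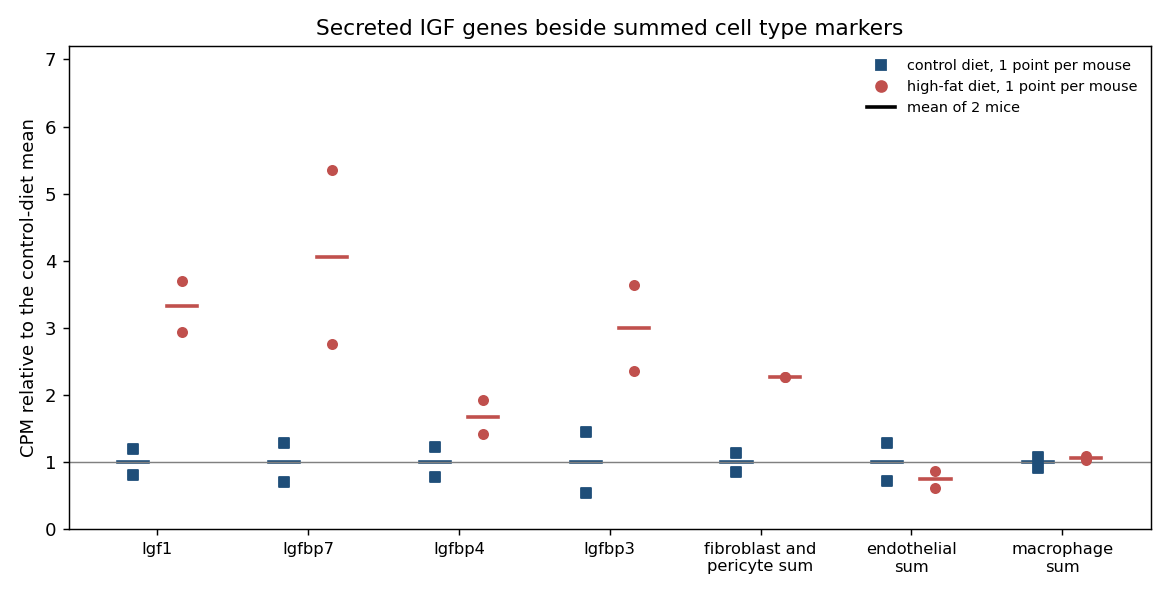
CPM of Igf1, Igfbp7, Igfbp4 and Igfbp3 and summed CPM of fibroblast and pericyte, endothelial and macrophage markers, each divided by its CD mean, with 1 point per mouse (squares control diet, circles high-fat diet) and the mean of each pair as a line. The fibroblast and pericyte sum lies higher in both HFD mice, as do the 4 genes, and the endothelial and macrophage sums overlap between the diets. Pecam1, the largest part of the endothelial sum, had 26.5 and 40.3 CPM in the HFD and 78.2 and 43.1 CPM in the CD mice. The overlap of that sum rests on Pecam1, so it does not set endothelial apart from fibroblast and pericyte markers. Of the 8 tested endothelial markers 4 lay higher in both HFD mice and 2 lower, Pecam1 among the latter. The shares over all genes tested were 32.2% and 31.6%.

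The receptors did not differ detectably. Insr (chromosome 8, 3122061 to 3279617, minus strand), the insulin receptor, had 32.4 and 30.8 CPM in the HFD and 30.8 and 27.3 CPM in the CD libraries. The values overlapped, with a log2 fold change of 0.12 (SE 0.15, edgeR adjusted p = 0.614) and a 95% interval from -0.24 to 0.47. Igf1r (chromosome 7, 67952827 to 68233668, plus strand), the IGF1 receptor, had 35.9 and 30.8 CPM against 43.1 and 25 CPM. Its CD mice enclosed both HFD mice, and its log2 fold change was -0.03 (SE 0.27, edgeR adjusted p = 0.952, 95% interval -0.68 to 0.62). The sign of this difference turned in 4 of the 9 alternative settings, reaching 0.42 without CD mouse 1 (adjusted p = 0.177). Per kilobase the receptors were close to each other, with Igf1r at 0.907 and 0.818 times Insr on the high-fat diet and 1.14 and 0.748 times Insr on the control diet.

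Of the other ligands and receptors, 2 of 5 were tested. Igf2r, the mannose 6-phosphate receptor that clears IGF2 from the cell surface, had 48.7 and 53.7 CPM in the HFD mice and 76.2 and 78.5 CPM in the CD mice. The pairs were tight and apart, and Igf2r fell 1.51-fold (log2 fold change -0.60, SE 0.14, edgeR adjusted p = 0.0476). This call lay near the threshold and was lost without either HFD mouse (adjusted p = 0.328 and 0.185), without CD mouse 1 (0.0541) and with the mouse number as a block (0.0902). Insrr, a receptor of the insulin receptor family that senses alkaline pH, had 0.278 ± 0.0981 against 0.447 ± 0.328 CPM (SD, n = 2 mice per diet, edgeR adjusted p = 0.558). Ins1 and Ins2, the insulin genes, had 0 reads in all 4 libraries, where 3 counts would be 0.0782 to 0.0925 CPM. Igf2 had 3 reads in the HFD libraries together and 0 in the CD libraries.

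Pik3r1, Foxo1 and Foxo3, which lie below the docking proteins, were not called. Pik3r1 (chromosome 13, 101680563 to 101768217, minus strand) encodes the regulatory subunit of PI 3-kinase that binds IRS proteins. It had 96.9 and 76 CPM in the HFD and 103 and 116 CPM in the CD libraries, a log2 fold change of -0.35 (SE 0.17, edgeR adjusted p = 0.225). The HFD pair lay below the CD pair, with a small gap.

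Foxo1 (chromosome 3, 52268336 to 52353221, plus strand) had 25.4 and 22.5 CPM against 28.3 and 26.2 CPM, a log2 fold change of -0.19 (SE 0.15, edgeR adjusted p = 0.441). Foxo3 (chromosome 10, 42181841 to 42276755, minus strand) had 99.4 and 112 CPM against 166 and 133 CPM, a log2 fold change of -0.50 (SE 0.17, edgeR adjusted p = 0.109). In both FOXO genes the HFD values lay below the CD values. Foxo3 passed the threshold without CD mouse 2 (log2 fold change -0.65, adjusted p = 0.0284).

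Per kilobase of merged exons, the order of the 10 genes was similar in the diets apart from Irs2, Igfbp4 and Igfbp7. On the control diet Irs2 stood first at 43.9 CPM per kb, followed by Igfbp4 at 24 and Foxo3 at 19.8, the last pair overlapping between mice. On the high-fat diet Igfbp4 stood first at 40.2 CPM per kb, followed by Irs2 at 17.2 and Foxo3 at 14, and Irs2 and Foxo3 overlapped. Pik3r1 came next in both diets, at 10.9 and 8.57 CPM per kb on the control and high-fat diet. Foxo1, Insr, Igf1r and Irs1 followed each other in that order in both diets, between 3.14 and 1.36 CPM per kb on the control diet and between 2.76 and 1.90 on the high-fat diet. Insr and Igf1r overlapped between CD mice, and Igf1r and Irs1 between HFD mice. Igfbp7 stood below these on the control diet, at 1.25 CPM per kb, where it overlapped Irs1, and above them on the high-fat diet, at 5.06. Igf1 was last in both, at 0.0887 and 0.295 CPM per kb.

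**Figure D4:**
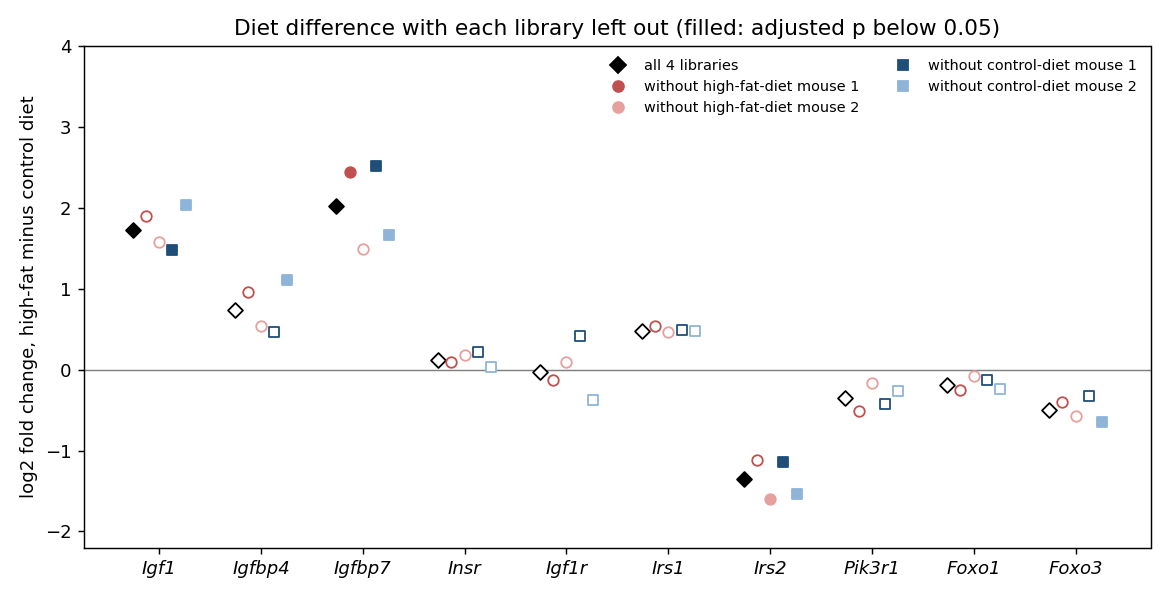
Log2 fold change, high-fat minus control diet, of each of the 10 genes with all 4 libraries (diamonds) and with each library left out (circles for HFD mice, squares for CD mice), where filled symbols have an adjusted p below 0.05. Igf1, Igfbp7 and Irs2 keep their sign in all 5 fits and lose the call in at least 1, and Igf1r changes its sign.

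The spread between mice of 1 diet differed from gene to gene. It was largest for Igfbp7 in both diets, as given above. Between the CD mice, Igf1r differed by -0.79 and Igfbp4 by 0.65 on the log2 scale (mouse 2 over mouse 1). Between the HFD mice, Irs2 differed by 0.48 and Igfbp4 by 0.43. Irs1, Insr and Foxo1 differed between mice of a diet by -0.17 to 0.07.

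The other genes of the pathway numbered 80, of which 68 were tested, with 2 called higher and 7 lower by edgeR, where the shares over all genes tested were 2.61% and 7.91%. These counts lie close to that background. Their log2 fold change was negative in 49 and positive in 19, with a median of -0.17 against 0.005 over all genes tested. Both HFD values lay below both CD values in 31 of the 68 and above them in 9, against 31.6% and 32.2% of all genes tested. Leaving out HFD mouse 1 gave 0 higher and 1 lower calls, leaving out HFD mouse 2 gave 0 of either, leaving out CD mouse 1 gave 4 and 7, and leaving out CD mouse 2 gave 5 and 14.

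Grb10 (chromosome 11, 11930508 to 12038683, minus strand), an imprinted adaptor that binds the insulin and IGF1 receptors and restrains them, rose 2.08-fold. It had 44.3 and 38.7 CPM in the HFD and 22.5 and 17.4 CPM in the CD libraries (log2 fold change 1.06, SE 0.18, edgeR adjusted p = 0.0264). Dok2 (chromosome 14, 70766036 to 70778495, plus strand), a docking protein of blood cells that damps tyrosine kinase signals, fell 2.56-fold. It had 46.5 and 52.6 CPM against 150 and 104 CPM (log2 fold change -1.36, SE 0.21, edgeR adjusted p = 0.0214). In both genes the pairs lay far apart, and both calls were lost without either HFD mouse, with adjusted p from 0.0606 to 0.112. The other 9 adaptors tested, Shc1, Grb2 and Gab2 among them, were not called by edgeR, and over all adaptors DESeq2 called 1 higher and 2 lower.

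Of 9 PI 3-kinase subunits and activators, edgeR called 0 (1 at an unadjusted p below 0.05, 1 by DESeq2). The log2 fold change was negative in 8 of them, where over all genes tested 9278 were positive and 9144 negative. Pik3cd, the catalytic subunit of leukocytes, was nearest with 202 ± 8.92 against 339 ± 63.1 CPM (SD, n = 2 mice per diet, edgeR adjusted p = 0.0515), a log2 fold change of -0.75 (SE 0.18). It passed the threshold under either other scaling of libraries, at adjusted p = 0.0494 and 0.0449. Pik3ap1, an adaptor that links receptors to PI 3-kinase in immune cells, had 179 ± 24.7 against 239 ± 41 CPM (adjusted p = 0.188).

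Of 12 phosphatases and inhibitors edgeR called 3 lower and 0 higher, and DESeq2 4 and 1. The edgeR shares over all genes tested were 7.91% lower and 2.61% higher. Phlpp2 and Phlpp1 encode a pair of phosphatases that remove an activating phosphate from AKT. Phlpp2 had 19.7 and 16.6 CPM in the HFD mice and 34.9 and 36.1 CPM in the CD mice, and fell 1.95-fold (log2 fold change -0.97, SE 0.16, edgeR adjusted p = 0.0237). Phlpp1 had 29 and 35.1 CPM against 56.4 and 54 CPM, and fell 1.72-fold (log2 fold change -0.78, SE 0.16, edgeR adjusted p = 0.0349). In both genes the CD mice were nearly equal and lay well above the HFD mice. Inpp4a, which acts on a lipid product of PI 3-kinase, fell 1.58-fold from 50.2 ± 0.362 to 31.8 ± 2.01 CPM (adjusted p = 0.0384). These 3 calls were lost without either HFD mouse (adjusted p from 0.0777 to 0.272), and that of Inpp4a also with the mouse number as a block (0.0684). Inpp4b, a relative of Inpp4a, lay on the other side, with 29.5 and 19.8 CPM in the HFD and 5.73 and 12.9 CPM in the CD libraries, and was not called (log2 fold change 1.40, SE 0.40, edgeR adjusted p = 0.076).

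Of 14 tested genes of AKT, its kinases and its substrates, edgeR and DESeq2 called 0 (3 at an unadjusted edgeR p below 0.05). A negative log2 fold change was found in 13 of them, where over all genes tested 9278 were positive and 9144 negative. Akt2, the AKT form best known from insulin action, had 49.2 ± 4.47 against 69.1 ± 9.42 CPM (SD, n = 2 mice per diet, adjusted p = 0.103). Tsc2, an AKT substrate that holds back mTORC1, had 59.6 ± 2.09 against 79 ± 8.67 CPM (adjusted p = 0.126).

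Of 17 tested genes known as FOXO targets in other cells, edgeR called 2 lower and 1 higher, and DESeq2 3 and 1. Over all genes tested edgeR called 7.91% lower and 2.61% higher. Bcl2l11, which encodes the death-promoting protein BIM, is shown because 1 of its 2 RefSeq windows holds the FOXO binding element, in capitals, at bases 227 to 221 before the start (chr2:128125788-128126037, GRCm38.p6, plus strand). The window of its other start (chr2:128127325-128127574) has 0 matches.
Bcl2l11: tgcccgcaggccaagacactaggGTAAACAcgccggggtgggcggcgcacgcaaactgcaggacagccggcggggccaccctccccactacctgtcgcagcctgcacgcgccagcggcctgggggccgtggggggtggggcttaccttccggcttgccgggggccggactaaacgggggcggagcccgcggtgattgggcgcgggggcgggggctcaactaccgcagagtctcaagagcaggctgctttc
Bcl2l11 had 78.3 and 77 CPM in the HFD libraries and 204 and 170 CPM in the CD libraries. The HFD mice were nearly equal and far below both CD mice, and Bcl2l11 fell 2.41-fold (log2 fold change -1.27, SE 0.16, edgeR adjusted p = 0.0139). Its adjusted p was 0.0577 without HFD mouse 2.

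Bcl6, a transcriptional repressor, fell 1.83-fold from 140 ± 1.67 to 76.8 ± 5.45 CPM (SD, n = 2 mice per diet, edgeR adjusted p = 0.0235). Sesn1, a stress protein that restrains mTORC1, rose 1.88-fold from 21.2 ± 3.68 to 39.8 ± 7.07 CPM (adjusted p = 0.0417). Both calls were lost without either HFD mouse, and that of Sesn1 also without CD mouse 1, with adjusted p from 0.0554 to 0.217. The targets moved both ways, with 7 positive and 10 negative log2 fold changes and a median of -0.11.

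**Figure D5:**
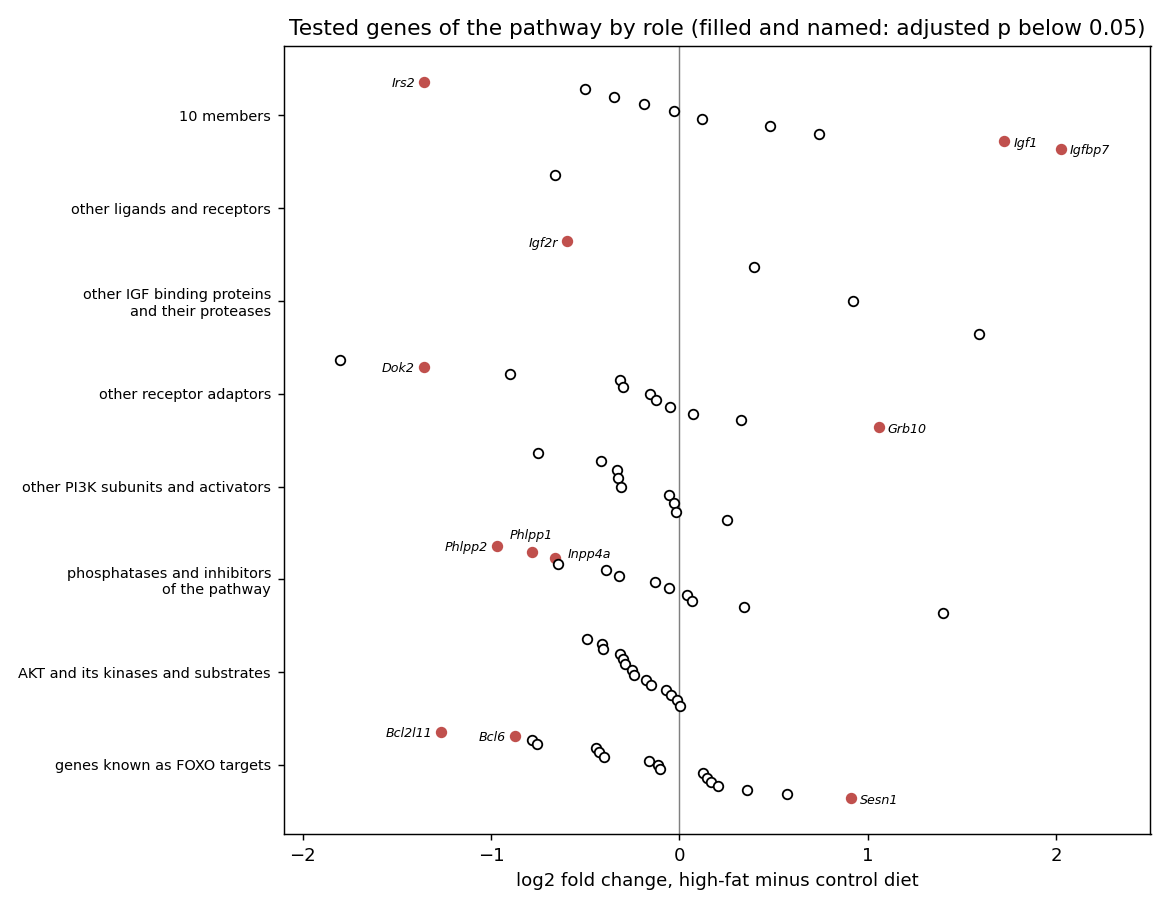
Log2 fold change, high-fat minus control diet, of every tested gene, 1 point per gene, in rows for the 10 genes and for the other genes of the pathway by role. Filled and named points have an adjusted p below 0.05. In the row of AKT and its kinases and substrates 13 of 14 points lie below 0 and none is called. Over all genes tested 9278 log2 fold changes were positive and 9144 negative.

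Among protein-coding genes whose mean log2 CPM was 3 or more, those whose log2 CPM, centred over the 4 libraries, lay nearest to Igf1 were Sh3bgrl2, Tmem37 and Ccl8, at root mean square distances of 0.15, 0.16 and 0.162. Ccl8, a monocyte-attracting chemokine, had 10.1 and 16.2 CPM in the HFD and 3.48 and 4.14 CPM in the CD libraries. Nearest to Igf1r were Adamtsl4, Srgn and Vcl, at 0.0427, 0.0461 and 0.0488. Srgn, which encodes the granule proteoglycan serglycin, had 494 and 449 CPM against 583 and 362 CPM, so that like Igf1r its CD mice lay on either side of both HFD mice. With 4 libraries such likeness is a description.

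Upstream neighbours of the 10 genes were searched among genes of the same strand with a log2 CPM of at least 5 that do not overlap them. The nearest of these lay 66.3 kb before Igfbp4 (Rara) and farther from each of the others. Less expressed genes upstream were not searched. On the same strand, Gm36638 (30 to 58 reads per library) and an unnamed transcript (12 to 32 reads) overlap Pik3r1, and Gm38034 (0 to 6 reads) overlaps Foxo1. Genes on the other strand that overlap Igf1, Insr, Irs1, Irs2 and Foxo1 had at most 7 reads in any library.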

How the data were processed

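The deposited file is a table of raw counts, the reads that the authors assigned to each gene in each library before any scaling. The submitters' processing notes list cutadapt (1.15), FastQC (0.11.5), BWA (0.7.12), DESeq2 (1.24.0), GRCm38 and mm10. How reads were counted, with which strand setting and on which annotation, is not given in the sources used here. Symbols were found by identifier for 53274 of 53379 rows, and the rest held at most 0.0129% of a library. Positions and merged exon lengths came from GENCODE M21 (GRCm38), promoter windows from RefSeq (GRCm38.p6).

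The main test was edgeR's quasi-likelihood test (edgeR 4.0.16, R 4.3.3) after filterByExpr (minimum count 10, minimum total 15), TMM scaling and robust dispersions, with diet as the only term. SE was taken as the absolute log2 fold change over the root of F. Alternatives were RLE and upper-quartile scaling, no filter, DESeq2 1.42.0, each library left out, and the mouse number as a block. The fit was tested on simulated data. Named were the 10 members, every called gene of the other lists and up to 2 of smallest p per list, and the 3 genes nearest in pattern to Igf1 and Igf1r. Shc1, Grb2, Gab2, Inpp4b, single markers and genes below the filter were named after their values were seen. The members and lists were chosen with earlier results of these data known, and the motifs after the promoter sequences were seen.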

Additional observations from a re-analysis of the deposited data

How the results depend on the processing

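Over the 9 alternatives, the log2 fold changes of the 26 named genes kept their sign in all settings except those of Igf1r and Insrr. Igf1r was at 0.0163 without a filter on low counts and 0.0176 with the replicate block, and ran from -0.37 to 0.42 over the fits that left out 1 library. Insrr ran from -1.28 to 0.37 over those fits. In these fits the diet with 1 mouse left is assumed to vary like the other. They gave 71 to 1934 higher and 300 to 2534 lower genes over all genes, 0 to 3 higher and 0 to 2 lower genes among the 10, and 0 to 5 higher and 0 to 14 lower genes among the others of the pathway. Without a filter there were 1552 higher and 2231 lower genes over all, with 4 and 11 in the pathway, and DESeq2 gave 1080 higher genes over all, with 4 and 11 in the pathway. Igfbp4 passed the threshold without a filter, by DESeq2 (adjusted p = 0.038) and with the replicate block (edgeR adjusted p = 0.0422). The block gave 567 higher and 1481 lower genes over all, 3 and 1 among the 10 and 2 and 5 in the rest of the pathway. Mouse numbers are shared by the diets but nothing says that they pair mice, and the deviations of same-numbered mice from their diet mean correlated at -0.188 across 10312 genes, which are not independent. The cause of these moves was not tested. Igf1 had 23 to 125 reads per library, and the limits set by depth and by the number of mice were not compared.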
